A study of Mus musculus with 12 samples.

Results

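The comparison described here is the early maturation of the normal mouse cerebellum, from the day of birth (postnatal day 0, P0) to P15, in euploid animals. It rests on 4 of the 12 arrays of the series, chosen by their labels: both hybridisations of the euploid P0 pool and both of the euploid P15 pool. Each pool held RNA of 3 cerebella. The euploid mice were the controls of Ts1Cje mice, which carry an added copy of part of chromosome 16, so the euploid groups carried no transgene, no added chromosome segment and no treatment. The labels give neither the sex nor the strain background of the pooled animals. The whole series set euploid against Ts1Cje cerebellum at P0, P15 and P30 on Affymetrix arrays, with 1 pool per genotype and stage and 2 arrays per pool. In the euploid P0 and P15 pools 3 animals each were mixed, and the 2 hybridisations of a pool measured the same RNA. The spread between hybridisations is therefore technical, and no test exists within the euploid pools alone. The euploid P30 pool held 2 cerebella, and each Ts1Cje pool held 3. The 4 Ts1Cje arrays of the same stages serve below as a further pair of pools.

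The mouse cerebellum is immature at birth. Granule neurons are still being born in an outer layer of progenitors that divide under Sonic hedgehog from Purkinje cells, and afterwards migrate inwards along the fibres of Bergmann glia. During the following weeks Purkinje cells grow their dendrites and receive synapses from granule cell axons, and oligodendrocytes wrap axons in myelin. By P15 the outer layer is close to exhausted, and circuits of granule, Purkinje and inhibitory neurons are in place.

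All 4 arrays had been brought to a common level, with median signals between 30.9 and 35.0 over all probe sets. After leaving out 66 control probe sets and those with low mean signal, 7453 probe sets for 5670 named genes were measured. Signals of the 2 hybridisations of a pool had a Pearson r of 0.967 at P0 and 0.970 at P15 across probe sets, and signals of arrays of different stages had r between 0.843 and 0.865. Control probe sets at the 3' and 5' ends of a transcript, whose ratio grows as RNA degrades, gave 0.841 to 0.975 for GAPDH and 1.13 to 1.43 for actin, with the higher values of each at P15. The tissue label was checked against defining markers. Zic1, a transcription factor of granule neurons at all ages, had signals of 2421 and 2564 at P0 and 3716 and 5170 at P15, among the brighter genes of each array. En2, a transcription factor that marks the cerebellar territory, had 262 and 243 at P0 and 982 and 1102 at P15. Markers of the medulla and midbrain were also seen at P0, and are described below.

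Differences are P15 minus P0 in log2(signal + 4.6), where 1 means 2-fold, and 4.6 is a small constant that keeps dim probe sets from giving extreme folds. A probe set was called when its difference reached 2-fold and both P15 hybridisations lay on the same side of both P0 hybridisations. By this rule 551 probe sets were higher at P15 (7.39% of those measured) and 503 were lower (6.75%), 14.1% in all. For genes, each represented by its brightest probe set, the counts were 437 higher (7.71%) and 387 lower (6.83%), and these shares are the background against which the counts of gene groups are read. Which direction held more 2-fold calls depended on the setting: with no filter on dim probe sets 622 were higher and 741 lower, and using only hybridisation 2 of every pool 594 were higher and 641 lower. At larger folds more genes were higher: 102 genes were at least 4-fold higher and 79 at least 4-fold lower, while 16 were at least 16-fold higher and 2 at least 16-fold lower. The median difference over all probe sets was -0.03. The 2 hybridisations of a pool were 2-fold apart for 186 probe sets at P0 (2.50%) and 166 at P15 (2.23%), which sets a single array against a single array. Genes close to 2-fold depend on 1 array: Sox2, Hk1, Grik1, Nr2f2 and Cycs lost the call when 1 P0 hybridisation was left out. Rplp0, Mapt and Basp1 lost it under quantile normalization, and Sin3b and Tubb2a when all their probe sets were averaged.

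A test with more than 1 pool per stage needs both genotypes. Limma, fitted to all 6 pools with genotype and stage as terms and adjusted by Benjamini-Hochberg, found 1014 probe sets to have risen by P15 (13.6%) and 1074 to have fallen (14.4%). Its calls held 511 of the 551 euploid higher calls (92.7%) and 436 of the 503 lower calls (86.7%). The fit contains the euploid pools themselves, so this overlap is no independent check. In the text below, "rose" and "fell" are used of genes and counts that passed this limma test, and "higher" and "lower" describe the euploid pools. Its p-values measure how far the pools depart from added effects of stage and genotype, so a stage difference unlike between the genotypes counts as spread. No genotype and stage had a replicate pool, and the labels do not tell whether the pools came from separate litters. In the Ts1Cje pools, measured on other arrays, 537 probe sets were called higher (7.21%) and 458 lower (6.15%) by the same rule of size. Of the euploid calls, 347 higher (63.0%) and 280 lower (55.7%) were also called there in the same direction, which is 64.6% and 61.1% of the Ts1Cje calls. The sign of the difference was the same in 1008 of the 1054 euploid calls. The share of all probe sets with the same sign in both genotypes was not counted, so this number has no background beside it.

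**Figure D1:**
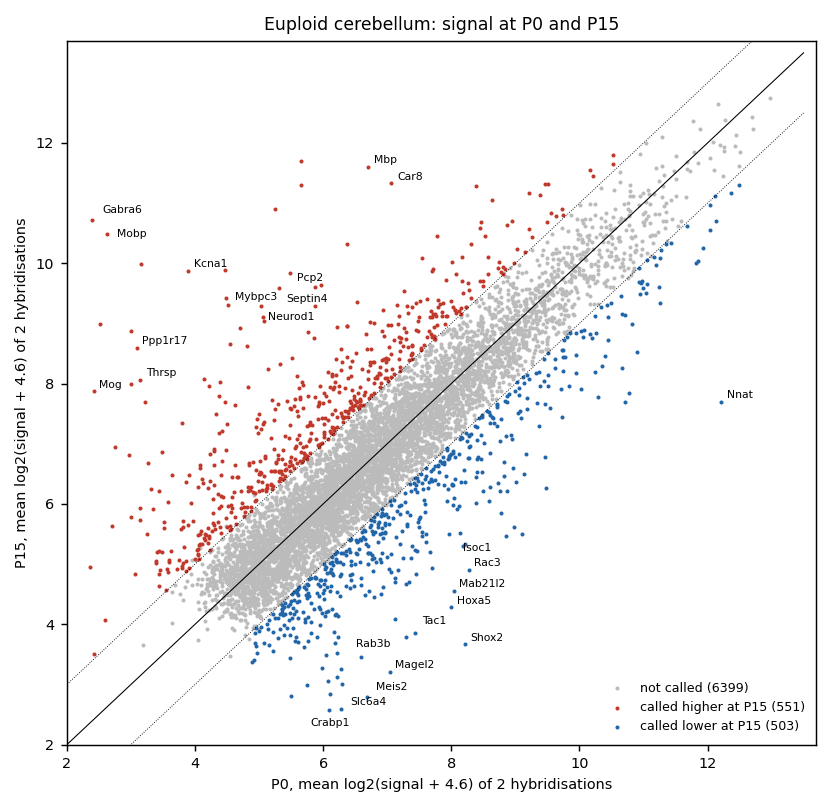
Mean log2(signal + 4.6) of the 2 hybridisations of the euploid P0 pool (horizontal axis) and of the euploid P15 pool (vertical axis) for 7453 probe sets, with 551 called higher at P15 in red, 503 called lower in blue and the rest in grey; the solid line is equality and the dotted lines are 2-fold. Gabra6 and Mobp lie at the upper left, near background at P0 and bright at P15, and Nnat lies at the lower right, bright at P0.

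The strongest increases belonged to granule neurons, oligodendrocytes and Purkinje cells. Gabra6, the GABA-A receptor subunit that marks mature granule neurons, gave signals of 0.4 and 0.9 on the P0 arrays and 1717 and 1639 on the P15 arrays. Mobp, a protein of the compact myelin sheath, gave 1.3 and 1.8 at P0 and 1362 and 1512 at P15. Neither gene had more than background at P0, so the size of the difference, 8.33 for Gabra6 and 7.87 for Mobp on the log2 scale, is set in part by the constant. Limma over both genotypes gave 7.90 ± 0.21 for Gabra6 (SE, 6 pools, adjusted p = 1.56e-07) and 7.91 ± 0.15 for Mobp (adjusted p = 4.41e-08). Further probe sets of the same genes were called too: 1 of Gabra6 with 6.85, and 3 of Mobp with 5.43, 5.87 and 6.48. Kcna1, a potassium channel subunit of axons and nerve terminals, went from 5.8 and 16.6 to 910 and 954, a difference of 5.98. Ppp1r17, a phosphatase inhibitor made by Purkinje cells, went from 3.7 and 4.1 to 365 and 400, a difference of 5.51. Mog, a protein on the outer surface of myelin, had 0.7 and 0.8 at P0 and 279 and 190 at P15. The groups of these genes were far apart, and the P15 hybridisations of each lay within 1.5-fold of each other. The remaining members of the 12 largest increases were Thrsp, a regulator of lipid synthesis (4.92), Mbp, the basic protein of myelin (4.90), Mybpc3, a gene known from heart muscle (4.79), Pcp2 (4.35) and Car8 (4.27) of Purkinje cells, Septin4, a septin of myelin and glia (4.28), and Neurod1, a transcription factor of granule neurons (4.27).

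Among the decreases, genes of brain patterning and of young neurons led. Shox2, a homeobox gene, had 298 and 288 at P0 and 5.9 and 10.8 at P15, a difference of -4.55 (limma over both genotypes -3.74 ± 0.40, adjusted p = 0.00033). Nnat, an imprinted gene of developing neurons, had 4408 and 5097 at P0 and 215 and 190 at P15, a difference of -4.52 (limma -3.99 ± 0.23, adjusted p = 1.54e-05). Nnat was among the brightest genes at P0, whereas Shox2 was of middle brightness, and neither overlapped between stages. Meis2, a homeobox cofactor, fell from 108 and 89.9 to 1.2 and 3.6, a difference of -3.91. Magel2, an imprinted gene of the MAGE family, fell from 126 and 128 to 7.3 and 2.6, a difference of -3.83. The other 8 of the 12 largest decreases were Hoxa5, a homeobox gene of the hindbrain and spinal cord (-3.72), Slc6a4, the serotonin transporter (-3.69), Tac1, the precursor of substance P (-3.58), Crabp1, a retinoic acid binding protein (-3.52), Rab3b, a vesicle GTPase (-3.50), Mab21l2, a gene of midbrain and eye development (-3.49), Isoc1 (-3.39) and Rac3, a small GTPase of growing neurons (-3.37). Several of them mark parts of the brainstem and midbrain. A second, dimmer probe set of Slc6a4 gave -0.76.

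**Figure D2:**
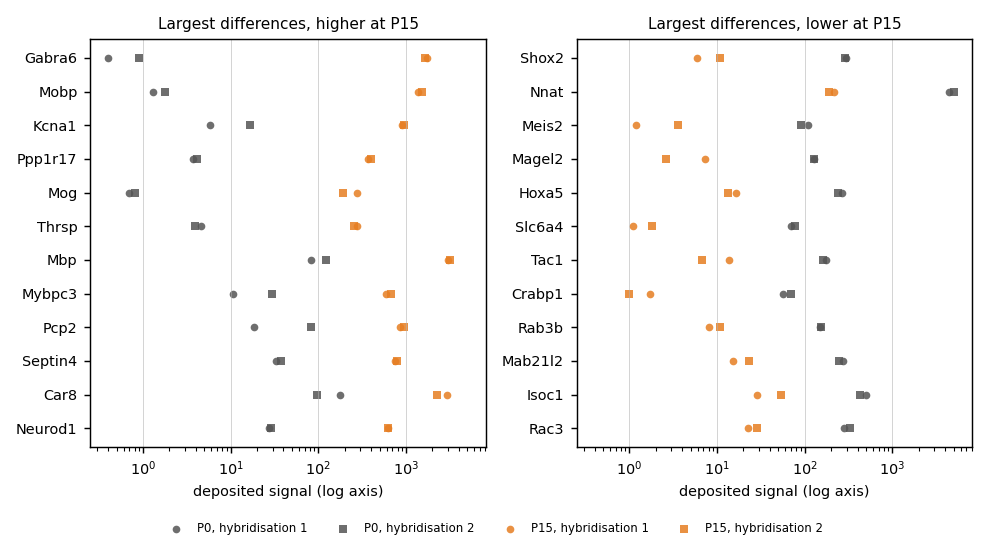
Deposited signal (horizontal, log axis) on each of the 4 euploid arrays for the 12 genes with the largest increase (left) and the 12 with the largest decrease (right); grey marks P0, orange marks P15, circles are hybridisation 1 and squares hybridisation 2. For every gene shown the stages do not overlap, and Pcp2 has the widest gap between P0 hybridisations, at 18.4 and 82.6.

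The 250 bases before the annotated start of the 2 leading genes of each direction with a single listed start are shown, taken from RefSeq (GRCm38.p6) and written 5′ to 3′ on the strand of the gene, with CG dinucleotides in capitals, to show how they differ in the sites where vertebrate promoters can be methylated. They lie at chr11:42321073-42321322 (minus strand, Gabra6), chr9:120149492-120149741 (plus strand, Mobp), chr3:66981772-66982021 (minus strand, Shox2) and chr2:157559828-157560077 (plus strand, Nnat).
Gabra6: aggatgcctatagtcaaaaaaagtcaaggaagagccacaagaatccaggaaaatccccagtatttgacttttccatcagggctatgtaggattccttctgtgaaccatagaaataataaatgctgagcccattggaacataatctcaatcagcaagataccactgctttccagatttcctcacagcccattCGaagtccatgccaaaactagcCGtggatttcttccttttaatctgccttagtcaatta
Mobp: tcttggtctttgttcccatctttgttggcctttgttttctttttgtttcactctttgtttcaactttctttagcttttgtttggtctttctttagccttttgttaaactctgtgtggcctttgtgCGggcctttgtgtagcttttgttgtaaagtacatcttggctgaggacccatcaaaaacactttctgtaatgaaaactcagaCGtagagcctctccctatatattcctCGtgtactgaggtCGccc
Shox2: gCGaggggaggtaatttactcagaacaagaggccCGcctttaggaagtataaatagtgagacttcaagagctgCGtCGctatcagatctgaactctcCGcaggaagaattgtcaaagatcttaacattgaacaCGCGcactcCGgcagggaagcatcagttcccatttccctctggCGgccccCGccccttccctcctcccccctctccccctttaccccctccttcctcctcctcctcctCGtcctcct
Nnat: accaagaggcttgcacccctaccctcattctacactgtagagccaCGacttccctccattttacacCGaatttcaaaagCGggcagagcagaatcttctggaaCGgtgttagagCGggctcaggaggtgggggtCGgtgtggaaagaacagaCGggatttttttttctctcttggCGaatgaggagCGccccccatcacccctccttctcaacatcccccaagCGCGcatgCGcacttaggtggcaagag
The 2 genes that went from background to bright had 2 CG dinucleotides (Gabra6) and 4 (Mobp), with 40.8% G and C in each, while Shox2 had 11 and Nnat 12. The motif TATAAA and the motif GGGCGG, each sought on both strands, were found before Shox2 and not in the other 3 stretches.

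Over genes with 1 listed start, the ratio of observed to expected CG in these 250 bases had a median of 0.758 for 3601 measured genes. It was 0.723 for 252 genes called higher, 0.710 for 224 called lower and 0.766 for 3125 not called. Among genes at least 4-fold higher (50 genes) the median was 0.641, and among those at least 4-fold lower (48 genes) it was 0.610. A ratio under 0.5 was found in 42.0% of the former and 35.4% of the latter, against 18.4% of genes not called. Promoters poor in CG were thus more frequent among large differences in either direction; these shares are a description, with no test. TATAAA was present in 6.78% of uncalled promoters, 8.0% of those at least 4-fold higher and 14.6% of those at least 4-fold lower, the last being 7 genes. GGGCGG was present in 62.8%, 54.0% and 58.3% in the same order.

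Named genes were then grouped into 36 lists by cell type and function, and a gene can stand in several. The lists whose members were most often higher at P15 were those of mature granule cells, Purkinje cells and myelin, and the lists with the largest shares lower were those of young neurons, of brain regions next to the cerebellum, of imprinted genes and, with 3 of 7 members lower and 3 higher, of unipolar brush cells and cerebellar nuclei. In RNA of a whole tissue, fewer cells of a type and less RNA per cell cannot be told apart, and this applies to every list below.

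**Figure D3:**
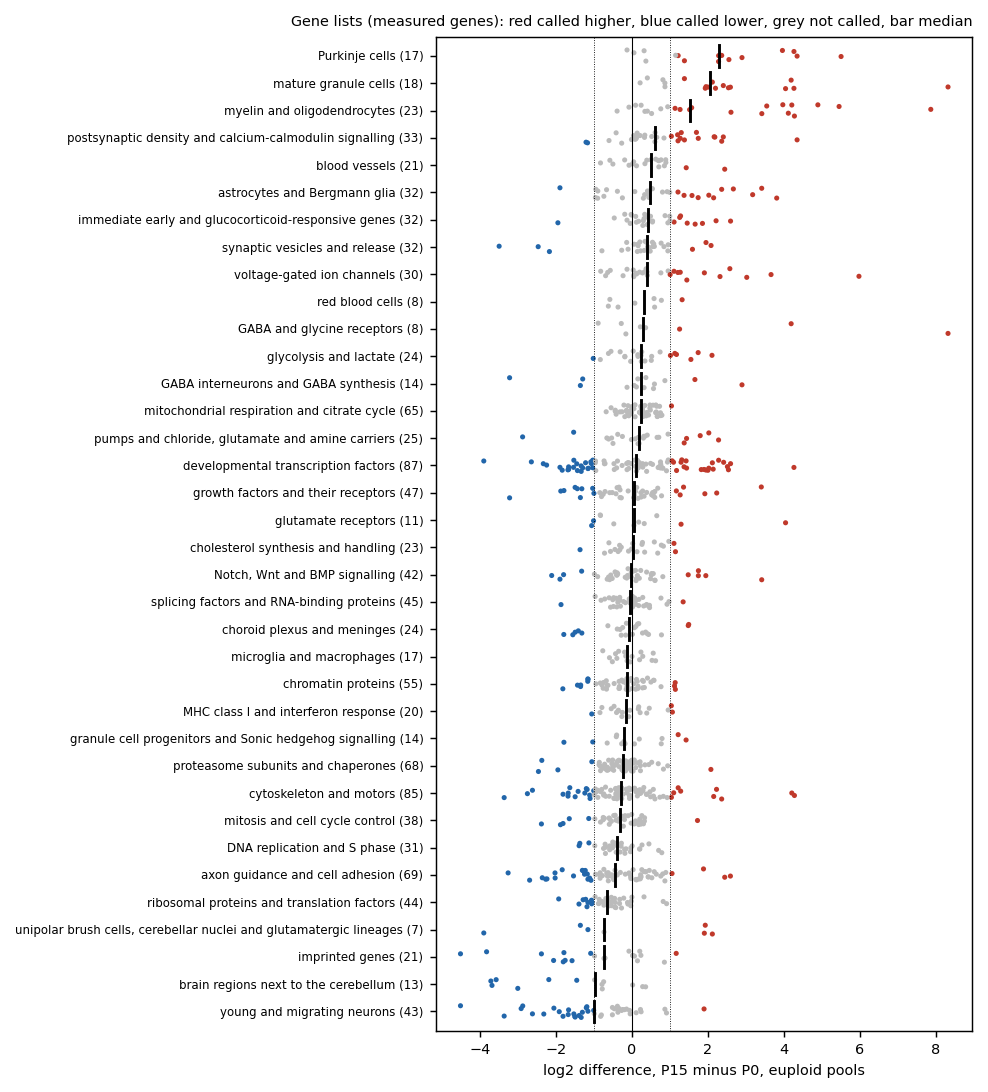
Log2 difference between the euploid P15 and P0 pools (horizontal axis) for every measured gene of each of 36 lists, with the number of measured genes in brackets, the list median as a black bar, and dotted lines at 2-fold; red genes were called higher, blue lower and grey not called. Medians run from 2.28 for Purkinje cells to -1.0 for young and migrating neurons.

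Purkinje cell genes were higher at P15 in most cases. Of 17 measured members, 12 were called higher and 0 lower, against 7.71% and 6.83% of all genes, and limma called the same number higher; the list median was 2.28, and 1.81 in the Ts1Cje pools. Their summed signal was 1512 and 1468 on the P0 arrays and 10844 and 10912 on the P15 arrays. Pcp2, a regulator of G protein signalling known from Purkinje cells and retinal bipolar cells, had 18.4 and 82.6 at P0 and 864 and 955 at P15; the P0 hybridisations were far apart, so the pairings of arrays gave differences from 3.32 to 5.38. Car8, an inactive carbonic anhydrase that binds the IP3 receptor, had 174 and 95.8 at P0 and 2909.8 and 2278 at P15, a difference of 4.27. Calb1, the calcium buffer calbindin, had 83.9 and 72.3 at P0 and 1295 and 1268 at P15, a difference of 3.96. Purkinje cells already carry these proteins at birth in mice, and all 3 genes had signal at P0. By the brightest probe set, smaller increases were those of Pvalb, the calcium buffer parvalbumin (2.90), Inpp5a, which degrades IP3 (2.55), and Homer3, a scaffold of spines (2.36). Cacna1a, the P/Q calcium channel (2.32), the glutamate transporter Slc1a6 (2.28) and the transcription factor Rora (2.28) followed. A dimmer probe set of Pvalb went from 2.5 and 4.4 at P0 to 276.6 and 227.8 at P15, a difference of 4.999. Dimmer probe sets of Pcp2 and Ppp1r17 gave 2.79 and 3.64. The ranking of these genes by size thus depends on the probe set. Lhx1 and Lhx5, LIM homeobox factors that mark Purkinje cells as they form, had -0.13 and 0.37 and were not called.

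Genes of mature granule neurons were the next group. Of 18 measured members, 13 were called higher and 0 lower, all 18 had a positive difference, and limma called 16 higher. The median was 2.06, with 1.54 in the Ts1Cje pools. After Gabra6 came Neurod1, which drives granule neuron differentiation, with 27.3 and 28.6 at P0 and 618 and 626 at P15. Gabrd, the subunit that pairs with Gabra6 in extrasynaptic receptors, went from 1.4 and 3 to 123 and 115, a difference of 4.19. Grin2c, the NMDA receptor subunit of mature granule neurons, went from 48.6 and 16.3 to 542 and 550.5, a difference of 4.05. These 3 receptor subunits and Neurod1 did not overlap between stages. Cbln1, the precerebellin that parallel fibres secrete to hold synapses on Purkinje cells, rose from 398.6 and 391.7 to 1908.9 and 2339.6, a difference of 2.41. Cdh15, M-cadherin (2.59), Zic2 (2.54), Tiam1, an activator of Rac (2.20), Pax6 (2.12), Neurod2 (2.00), Snap25 (1.95) and Calb2, calretinin (1.93), followed. A dimmer probe set of Zic2, with a mean signal of 27.1, gave -0.71, so the increase of Zic2 rests on 1 of 2 probe sets. Zic1, the brightest member not called, had a difference of 0.81.

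Genes of granule cell progenitors did not move as a group. Of 14 measured members, 2 were called higher and 2 lower, with a median of -0.20. Ptch1, the Sonic hedgehog receptor and itself a target of the pathway, had 251 and 172 at P0 and 555 and 429 at P15, a difference of 1.22, while a dimmer probe set gave -0.02. Insm1, a zinc finger factor of cells leaving division, had 1.42. The lower members were Plagl1, an imprinted zinc finger gene (-1.79), and Sox2, a factor of neural stem cells and glia (-1.03). Ccnd1, the cyclin D1 of dividing progenitors, had 140 and 107 at P0 and 110 and 104 at P15, which do not separate by fold, and Mycn had -0.27. Of 31 genes of DNA replication, 0 were called higher and 3 lower, with a median of -0.40, and 24 of 31 had a negative difference. The 3 were Chaf1b, a histone chaperone (-1.39), Rrm2, a ribonucleotide reductase subunit (-1.37), and Lig1, DNA ligase I (-1.14), all dim at P15. Limma called 8 members lower. Pcna, the clamp of the replication fork, had 303 and 232 at P0 and 251 and 214 at P15, a difference of -0.19. Members of this list thus mostly lay slightly lower, within 2-fold. Among 38 genes of mitosis and the cell cycle, 5 were called lower and 1 higher, with a median of -0.31, and limma called 12 lower. The largest was Cdkn1c, an inhibitor of cyclin-dependent kinases and not a driver of division, from 442 and 399 to 86.8 and 67.6 (-2.39). Cks1b, a cofactor of those kinases (-1.89), Stmn1, which destabilises microtubules in dividing cells and growing neurons (-1.82), Kif23, a kinesin of cytokinesis (-1.65), and Mki67 (-1.14) made up the rest. Mki67, the antigen of dividing cells, had 54.3 and 32.1 at P0 and 16.6 and 16.4 at P15. The single higher member was Gadd45a, a stress-induced brake on the cycle (1.73).

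Genes of young and migrating neurons made up the broadest decrease. Of 43 measured members, 21 were called lower and 1 higher, 37 had a negative difference, and limma called 24 lower and 3 higher. The median was -1.0, with -0.83 in the Ts1Cje pools, and the summed signal was 63885 and 69806 at P0 and 31762 and 34807 at P15. Dpysl3, a collapsin response mediator of growth cones, fell from 593 and 420 to 48.4 and 40.3 (-3.37). St8sia2, which adds polysialic acid to the adhesion molecule NCAM, fell from 362 and 519 to 41.2 and 68.3 (-2.92), and the related enzyme St8sia4 had -2.88. Both enzymes of polysialic acid synthesis were thus lower, and Ncam1 itself had -1.16. Dcx, the microtubule protein doublecortin of migrating neurons, fell from 1583 and 1654 to 562 and 571 (-1.51). Gap43, a protein of growing axons, fell from 2492 and 2402 to 746 and 557 (-1.92). Dbn1, the actin-binding protein drebrin (-2.62), Elavl2 (-2.32), Cd24a (-2.06), and the SoxC factors Sox4 (-1.53) and Sox11 (-1.34) were in the same direction. L1cam was called at -1.31 and did not pass limma. The 1 higher member was Nfib, a nuclear factor I protein (1.90). Elavl3 and Elavl4, RNA-binding proteins of neurons at all ages, had -0.20 and -0.14.

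In terms of signal, the losses were dominated by tubulins and growth-associated proteins of this kind. The 10 largest losses among called genes were those of Nnat, Basp1, Tubb2a, Tubb5, Tmsb10, Tubb3, Stmn1, Mapt, Rplp0 and Gap43. Tubb3, the neuronal beta tubulin, had 3722 and 4093 at P0 and 1173 and 1257 at P15. Tmsb10, a thymosin that binds actin monomers, had 3781 and 4716 at P0 and 1462 and 1522 at P15. The 10 largest gains were those of Mbp, Car8, Pvalb, Itm2b, Chgb, Ckb, Cbln1, Snap25, Gabra6 and Aldoc. Of all 85 measured genes of the cytoskeleton and motors, 15 were called lower and 9 higher, with a median of -0.30. Members of the same protein family differed. Among tubulins, Tuba4a went from 106 and 89.3 to 435 and 463 (2.15) and Tubb4a had 1.28, whereas Tuba1a had -0.27 and was not called. A second bright probe set of Tuba1a gave -0.65, also not called by size, and was lower in the limma test. Among neurofilaments, the heavy chain Nefh was called higher (1.22), the light chain Nefl (-1.64) and the middle chain Nefm (-1.11) were called lower, and alpha-internexin Ina had -0.42. Prph, the intermediate filament peripherin of peripheral and brainstem neurons, fell from 51.8 and 46.9 to 1.7 and 5.5 (-2.76). In the thymosins, Tmsb10 had -1.50 and Tmsb4x -0.32, and in the stathmins Stmn1 had -1.82, Stmn4 -0.74, Stmn3 -0.43 and Stmn2 -0.37. Second probe sets gave -0.82 for Stmn2 and -0.34 for Stmn3. The order among Stmn2, Stmn3 and Stmn4 thus depends on the probe set. In metabolism, Aldoc, the aldolase of Purkinje cells and astrocytes, had 1.74 and Aldoa 0.24, Ldhb had 1.17 and Ldha -0.62. A second, dimmer probe set of Aldoa gave 0.79 and was not called. The brighter probe set of Aldoa had 0.80 in the Ts1Cje pools. The elongation factor Eef1a2 of mature neurons had 0.91 and Eef1a1 -0.88, neither of them called. The chloride importer Slc12a2 had 1.80 and the chloride exporter Slc12a5 0.66. Among synaptotagmins Syt2 had 1.59 and Syt4 0.34, and among Id proteins Id3 had 0.07 and Id4 -0.95. By the brightest probe set of each gene, some pairs of related genes had the opposite order in the Ts1Cje pools. These were Stmn2 and Stmn3, which were 0.05 apart in the euploid pools, Ckb and Ckmt1, Sncg and Sncb, and Cox6a1 and Cox6a2.

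Myelin genes were higher at P15. Of 23 measured members, 14 were called higher and 0 lower, limma called 17 higher, and the median was 1.52, with 1.83 in the Ts1Cje pools. Beside Mobp and Mog, Mbp went from 82.1 and 121 to 2995 and 3214, the largest gain in signal of any called gene, although another probe set of Mbp with a mean signal of 93.2 gave -0.06. Gsn, the actin-severing protein gelsolin of oligodendrocytes (4.21), Mag, a receptor on the inner myelin layer (4.12), Cldn11, the tight junction protein of myelin (3.97), Ugt8a, which makes the lipid galactocerebroside (3.55), and Mal (3.42) also rose. Mag had 16.3 and 21.4 at P0 and 379 and 422 at P15. Members that act earlier in the lineage changed less. Pdgfra, the receptor of oligodendrocyte progenitors, had -0.39, Nkx2-2 -0.08 and Sox10 0.76, none of them called, and Myrf, the factor that switches on myelin genes, was called at 1.27.

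Of 32 measured genes of astrocytes and Bergmann glia, 11 were called higher and 1 lower, with a median of 0.48, and limma called 21 higher and 6 lower. S100b, a calcium-binding protein of mature glia, rose from 26.1 and 21.2 to 409 and 374 (3.81). Gdf10, a BMP family ligand of Bergmann glia, rose from 52.4 and 55.6 to 626 and 616 (3.42), and Dio2, the deiodinase with which astrocytes make active thyroid hormone, from 17.8 and 13.3 to 166 and 188 (3.18). These 3 genes separated the stages widely. Hopx (2.67), Gfap (2.36), the water channel Aqp4 (2.15), the bicarbonate transporter Slc4a4 (2.02) and Aldoc (1.74) were also called. Hes5, a Notch target of progenitors and radial glia, was the 1 member called lower (-1.90), and Notch1 (-0.91), Nes (-0.90) and Tnc (-0.74), genes of radial glia, were lower in the limma test without reaching 2-fold. Apoe was bright at both stages, with 2349.9 and 2634 at P0 and 2868 and 3425 at P15 (0.33).

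Inhibitory interneuron genes went apart. Of 14 measured, 2 were called higher (Pvalb, and Nos1, neuronal nitric oxide synthase, 1.66) and 3 lower (Sst, Npy and Tfap2b). Sst, the peptide somatostatin, had 651 and 777 at P0 and 70.8 and 73.1 at P15 (-3.23). Npy, neuropeptide Y, had -1.36 and did not pass limma, and Tfap2b, a factor of young inhibitory neurons, had -1.30. Gad1, which makes GABA, had 864 and 676 at P0 and 1206 and 1104 at P15 (0.59), Gad2 had 0.06 and the vesicular transporter Slc32a1 0.15, so the genes of GABA synthesis and loading stayed within 2-fold. In the list of unipolar brush cells, cerebellar nuclei and other glutamatergic lineages, 3 of 7 members were higher and 3 lower. Eomes, which marks unipolar brush cells, went from 12.4 and 7 to 58.6 and 39.2 (1.91), and Calb2 and Pax6 were higher. Meis2, Irx3 (-1.36) and Nr2f2 (-1.16), factors of cerebellar nuclei and of hindbrain patterning, were lower.

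Channels, receptors and postsynaptic proteins were more often higher. Of 30 genes of voltage-gated and other ion channels and their subunits, 11 were called higher and 0 lower, with a median of 0.38. Behind Kcna1 came Kcnk1, a leak potassium channel, from 58.4 and 57.8 to 704 and 885 (3.66), Kcnab1, a partner of Kcna1 (3.02), Kcnj12, an inward rectifier (2.58), and the calcium channels Cacna1a (2.32) and Cacna1g (1.91). The sodium channels Scn8a (1.21) and Scn1a (1.0) were called as well. No member of the list was at least 2-fold lower. Of 33 genes of the postsynaptic density and calcium signalling, 13 were higher and 2 lower, with a median of 0.60. They held Pcp2, Homer3 and Cbln1 together with Rgs8, a regulator of G protein signalling (2.18), the calcium pumps Atp2b2 (2.16) and Atp2a2 (1.75), and Ryr2, a calcium release channel (1.70). The lower members were Hpca, the calcium sensor hippocalcin (-1.21), and Cnih2, an auxiliary protein of AMPA receptors (-1.17). Of 8 receptor subunits for GABA and glycine, 3 were higher: Gabra6, Gabrd and Glrb (1.25). Of 11 glutamate receptor genes, Grin2c and Gria4 (1.29) were higher, Grid1 (-1.06) and Grik1 (-1.01) lower, and the bright AMPA subunit Gria2 had 823 and 771 at P0 and 952 and 852 at P15 (0.18). Members of the presynaptic list were mostly within 2-fold: of 32, 3 were higher and 3 lower, with a median of 0.40. Snap25, a protein of the fusion machinery, went from 618 and 560 to 2143 and 2435 (1.95), and Sh3gl2, the endophilin of vesicle recycling, had 2.08. Rab3b (-3.50), Syt5 (-2.47) and Stx1a, syntaxin 1A (-2.18), were lower. Of 25 pumps and carriers, 5 were higher and 2 lower, and the lower ones were Fxyd7, a subunit that tunes the sodium pump, from 226 and 362 to 34.7 and 34.9 (-2.88), and Slc1a4, a carrier of neutral amino acids (-1.54).

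Genes of protein synthesis were lower as a group. Of 44 measured ribosomal proteins and translation factors, 9 were called lower and 0 higher, 41 had a negative difference, and limma called 25 lower and 1 higher. The median was -0.65 in the euploid pools and -0.50 in the Ts1Cje pools. Rplp0, of the ribosomal stalk, had 3835 and 4581 at P0 and 1898 and 2101 at P15 (-1.07). Rps19, of the small subunit, had 1729 and 1045 at P0 and 499.5 and 243 at P15 (-1.93), with hybridisations of each pool far apart. Eif2s2, a subunit of the initiation factor that brings the first transfer RNA, had -1.40, while a dim probe set of it gave 0.50. Members of large families such as ribosomal proteins have many near-identical copies, and their probe sets may detect more than 1 gene. Mitochondrial respiration and the citrate cycle stayed within 2-fold, with 1 of 65 members called higher, the electron carrier Cycs (1.04), 0 lower, and a median of 0.23; limma called 13 higher. Of 24 genes of glycolysis, lactate and related energy metabolism, 6 were higher and 1 lower. The higher ones were Gpd1 (2.11), Aldoc, the neuronal enolase Eno2 (1.55), Ldhb, Ckb (1.13) and Hk2 (1.01), and Hk1 was lower (-1.02). Genes of cholesterol and related lipid metabolism had a median of 0.02. Of 23, 2 were higher, Ebp (1.14) and the fatty acid desaturase Scd1 (1.10), and Fdps, which makes farnesyl diphosphate, was lower (-1.37). Fdps did not pass limma and had 0.16 in the Ts1Cje pools. Of 45 splicing factors and RNA-binding proteins, Hnrnpu was called higher (1.35) and Cirbp, the cold-induced RNA-binding protein, lower, from 928 and 893 to 239 and 252 (-1.87). Of 55 chromatin proteins, 3 were higher and 7 lower. The lower ones were led by Hmgb3, a high-mobility group protein, from 1803 and 1807 to 503 and 511 (-1.82), then the histone methyltransferase Ehmt2 (-1.44) and the corepressor Sin3b (-1.36). In the Ts1Cje pools Hmgb3 had -1.66, Ehmt2 -0.45 and Sin3b -0.29. A dim second probe set of Sin3b gave 0.15 in the euploid pools. Of 68 proteasome subunits and chaperones, 4 were lower and 1 higher, with 51 of 68 below 0. Psme1, an activator subunit of the proteasome, had -2.47, Uchl1, a deubiquitinase abundant in neurons, -2.38, and Hspa2 was the higher member (2.08).

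Developmental transcription factors divided almost evenly. Of 87 measured, 21 were called higher and 23 lower, against 7.71% and 6.83% of all genes, and the median was 0.12. Limma called 30 higher and 28 lower. Higher factors included those of granule neurons (Neurod1, Zic2, Pax6, Neurod2), of hormone and daily rhythm response (Klf9, 2.60, Dbp, 2.51, and Bhlhe40, 1.31), the nuclear factor I genes Nfib (1.90) and Nfix (1.44), and Bcl6 (2.41), Rora (2.28) and Klf13 (2.14). Klf9, a target of thyroid hormone and glucocorticoids, went from 63.2 and 95.8 to 485 and 504, and a second probe set of it gave 4.47. Lower factors included Meis2, Ebf3 (-2.65), Pbx3 (-2.34), Zfhx3 (-2.25), Foxp1 (-1.84), the LIM-domain genes Lmo4 (-1.67) and Lmo1 (-1.44), Sox4, Sox11, and Pou3f2 (-1.22). Ebf3, a helix-loop-helix factor of young neurons, went from 456 and 468 to 58.2 and 83.1, with -1.93 in a second probe set. All 3 measured probe sets of Pbx3 were called lower. The engrailed genes, both needed for the cerebellar territory, went in opposite directions. En1 had 135 and 138 at P0 and 43.9 and 34.9 at P15 (-1.69), while En2 had 262 and 243 at P0 and 982 and 1102 at P15 (2.02). The Ts1Cje pools had the same order, with En1 at 208.5 and 212 at P0 and 44.4 and 37.9 at P15, and En2 at 373 and 367 at P0 and 724 and 766 at P15.

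**Figure D4:**
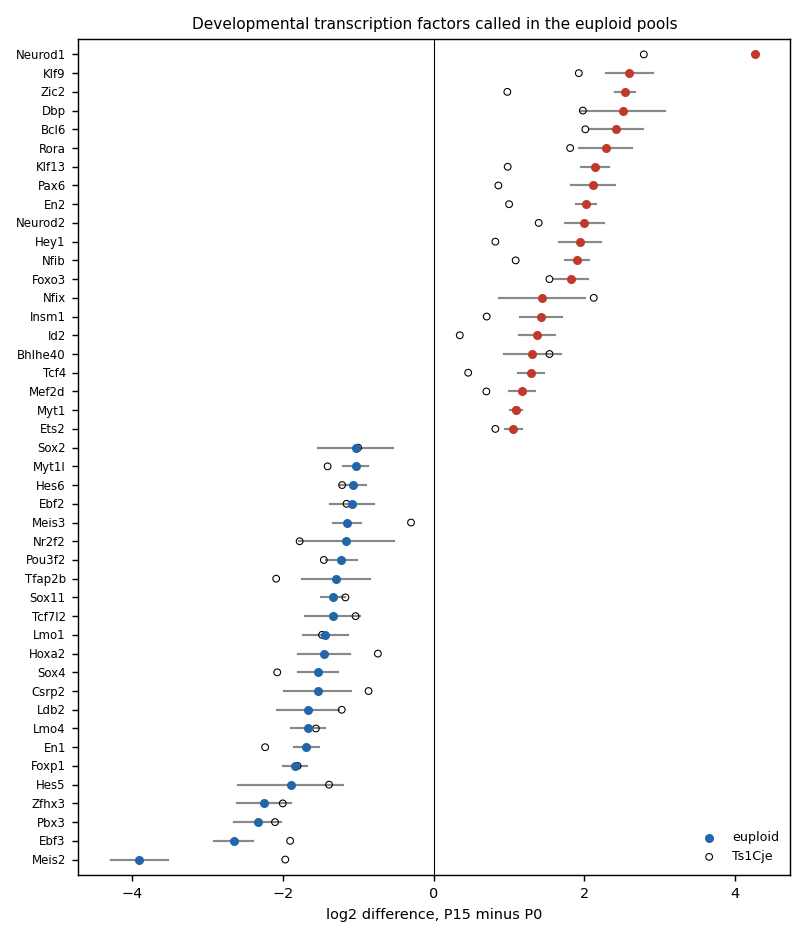
Log2 difference between P15 and P0 (horizontal axis) for the 44 developmental transcription factors called in the euploid pools; filled points are the euploid value, grey lines span the pairings of single P15 and P0 arrays, and open circles are the Ts1Cje pools. Neurod1 stands highest at 4.27 and Meis2 lowest at -3.91.

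Genes of axon guidance and adhesion were more often lower than higher. Of 69 guidance and adhesion genes, 18 were called lower and 4 higher, with a median of -0.45. Cdh13, a cadherin without a cytoplasmic tail, fell from 73.3 and 56.4 to 3.7 and 1.6 (-3.26), Cdh4, R-cadherin, from 60.2 and 80.5 to 7.2 and 6.5 (-2.70), and Alcam, an immunoglobulin adhesion molecule of axon bundles, from 510 and 398 to 87.7 and 80 (-2.36). The lower members also held the ephrin receptors Epha7 (-2.28), Epha5 (-2.03) and Epha4 (-1.84), the semaphorin receptor Nrp1 (-2.24) and the Slit receptor Robo1 (-2.03). The 4 higher members were Cdh15, Mcam (2.44), Unc5c, a netrin receptor of granule neurons, from 166 and 160 to 614 and 614 (1.88), and Sema4d (1.05). Of 42 genes of Notch, Wnt and BMP signalling, 5 were higher and 4 lower. The Notch ligand Dll1 (-2.12), the target Hes5 (-1.90) and the Wnt inhibitor Sfrp2 (-1.80) were lower, and Gdf10, Hey1, a Notch target (1.94), Numb, a Notch inhibitor (1.75), and Bmp1 (1.75) were higher. A second probe set of Numb was called in the opposite direction at -1.11. Both were dim, with mean signals of 38.0 and 28.4, so the direction of Numb is unresolved. Of 47 growth factors, peptides and receptors, 6 were higher and 9 lower. The insulin-like growth factor binding protein Igfbp6 (3.41), the neuregulin receptor Erbb3 (2.23), known in oligodendrocytes, and the corticotropin-releasing hormone receptor Crhr1 (1.92) were higher. Sst, Adcyap1, the peptide PACAP (-1.88), Cx3cl1, fractalkine (-1.79), and Bdnf (-1.0) were lower. In the Ts1Cje pools Cx3cl1 had -0.28, against -1.70 for Sst and -1.48 for Adcyap1. Igf2, bright at both stages, had 1376 and 1268 at P0 and 1203 and 1585 at P15 (0.06).

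Of 32 immediate early and glucocorticoid-responsive genes, 8 were called higher and 1 lower, with a median of 0.43. Klf9, Btg1, an antiproliferative gene (2.21), Fos (1.86), Ier2 (1.66) and Dusp1 (1.45) were higher. Fos had 50.3 and 38.3 at P0 and 206 and 142 at P15, while Egr1 (0.28) and Fosb (-0.13), of the same class, were not called. Fkbp5, a glucocorticoid-induced cochaperone, had the opposite direction, from 272 and 248 to 65.9 and 61.5 (-1.95). Among 21 imprinted genes, 9 were lower and 1 higher. Behind Nnat and Magel2 came Cdkn1c, Dlk1, a growth regulator of the Notch ligand family (-2.07), Mkrn3 (-1.81), Plagl1, Grb10 (-1.76) and Meg3, a long noncoding RNA, from 1758 and 1595 to 554 and 559.8 (-1.58). Meg3 had -0.36 in the Ts1Cje pools and -0.90 in a second probe set. Rasgrf1, an exchange factor for Ras, was higher (1.16). Igf2 (0.06), Mest (0.02) and Gnas (-0.08) had differences near 0. Of 20 genes of MHC class I and the interferon response, 2 were higher, H2-K2 (1.06) and Ly6e (1.04), and 1 lower, H2-Q10 (-1.06). H2-Q10 did not pass limma and had -0.11 in the Ts1Cje pools. The MHC genes are near-identical copies of each other, and their signals may be shared.

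Markers of other cells that a dissected cerebellum can hold were counted in the same way. Of 17 microglia and macrophage genes, 0 were called in either direction, with a median of -0.13; limma called 2 higher, and Csf1r, the receptor that defines the lineage, had 92.6 and 106 at P0 and 102 and 89.8 at P15. Of 21 vessel genes, Mcam and Flt1 (1.43), a VEGF receptor, were higher, with a median of 0.50. Flt1 did not pass limma and had 0.15 in the Ts1Cje pools, and a second, similarly dim probe set of it gave 0.65. Of 8 red blood cell genes, Alas2, the heme synthesis enzyme of red cells, was higher (1.32), and the globin Hba-a1, at 3304 and 3704 in the P0 pool, had 0.60. Counts for these cells were near the share of all genes. Of 24 genes of choroid plexus and meninges, 5 were lower and 2 higher, with a median of -0.07 and summed signals of 5023 and 5166 at P0 and 4423 and 5137 at P15. Ttr, the transthyretin of choroid plexus, had 357 and 361 at P0 and 120 and 128 at P15 (-1.50), and Folr1 had -1.41, and neither passed limma. Klotho (Kl), also of choroid plexus, was higher (1.48) at low signal, as was Mgp of meninges and vessels (1.49). The matrix genes Postn (-1.80) and Col5a2 (-1.56) were lower, while Col1a1 (0.28) and Dcn (0.44) were not called.

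Markers of neighbouring parts of the brain (medulla, pons, midbrain) were more often lower than higher at P15 in the euploid pools. Of 13 measured, 6 were called lower at P15 and 0 higher, with a median of -0.99, and limma called 7 lower. Their summed signal was 1845 and 1857 on the euploid P0 arrays and 1118 and 1260 on the P15 arrays. Of this, Penk, an opioid precursor that cerebellar cells also make, gave 640.0 and 611 at P0 and 706.5 and 818 at P15. On the Ts1Cje arrays the summed signal was 1436 and 1536 at P0 and 1251 and 1291 at P15. At P30 it was 1540 and 1484 in the euploid pool and 1614 and 1546.5 in the Ts1Cje pool, above P15 in each genotype. At P15, Slc6a4 (1.1 and 1.8) and Gata3 (9.1 and 0.5) were at background. The 6 markers had different patterns over the genotypes. Hoxa5 had 264 and 240 on the euploid P0 arrays, 30.4 and 32.3 on the Ts1Cje P0 arrays, and 10.4 to 32.3 on all 10 arrays other than those of euploid P0. Hoxb5, likewise a gene of caudal hindbrain, had 143.5 and 196 on the euploid P0 arrays, 34.2 and 22.9 on the Ts1Cje P0 arrays, and 22.9 to 49.9 on the other 10. Hoxa2, of a more rostral hindbrain domain, had 62.9 and 50.3 on the euploid P0 arrays and 14.7 to 34.5 elsewhere. These 3 Hox genes had their highest signals in the euploid P0 pool, whereas Hoxa4, the other measured Hox gene of the list, had 133.6 and 159.6 there and 108 to 202.7 on the other 10 arrays. The difference between stages was -3.72 for Hoxa5, -2.19 for Hoxb5, -1.46 for Hoxa2 and 0.02 for Hoxa4 in the euploid pools, and -0.32, 0.39, -0.74 and -0.28 in the same order in the Ts1Cje pools. Slc6a4, Gata3 and Tac1, genes of serotonin neurons, of midbrain and hindbrain interneurons and of tachykinin neurons, were high in the P0 pools of both genotypes. Slc6a4 had 69.6 and 77.2 in the euploid P0 pool and 96.3 and 116 in the Ts1Cje P0 pool. Tac1 had 176 and 161 in the former and 181 and 155 in the latter. Shox2, Mab21l2 and Meis2, among the leading decreases above, followed this second pattern: Shox2 had 298 and 288 in the euploid and 370 and 361 in the Ts1Cje P0 pool. The part of tissue from neighbouring regions in these and the other decreases was not tested.

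**Figure D5:**
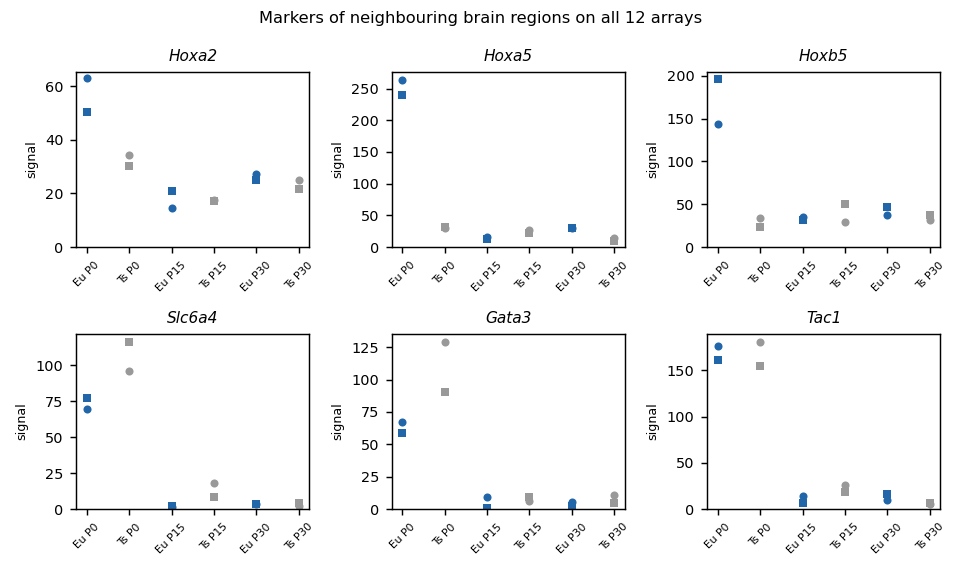
Deposited signal (vertical axis, linear from 0) of the 6 called markers of neighbouring brain regions on all 12 arrays, by pool; blue is euploid and grey is Ts1Cje, with circles for hybridisation 1 and squares for hybridisation 2. Hoxa2, Hoxa5 and Hoxb5 are highest in the euploid P0 pool, and Slc6a4, Gata3 and Tac1 are high in the P0 pools of both genotypes.

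Genes with signals over 500 on all 4 arrays cannot be dim at either stage, which limits the difference they can show. Of these 390 genes, 34 were called, and of all 5670 genes, 824 were called. The 8 with the smallest differences, each under 0.02 in size, were Ctsb, the lysosomal protease cathepsin B, Hacd3, Hnrnph1, Scamp1, Nisch, Cbfb, Jund and Ubl5. Nisch had 1176 and 1200 at P0 and 1174 and 1220.2 at P15. Other bright members of lists that stayed near 0 were Slc25a4, the adenine nucleotide carrier of mitochondria (-0.02), Hsp90aa1 (0.06), Clcn3 (0.12) and Gria2 (0.18).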

How the data were processed

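RNA of euploid mouse cerebellum was measured on 4 Affymetrix arrays, and 8 further arrays of the series entered where stated. The deposited values are linear signal intensities made by the authors with MAS5, per the submitters' processing notes, which combines the probes of a probe set into 1 value; the version of MAS5 is not given in the sources used here. With the lowest and highest 2% of probe sets removed, each of the 4 euploid arrays had a mean of about 100.06, so these arrays had been scaled alike. The same mean is not given here for the 8 further arrays. No further scaling was applied. Of 12488 probe sets, 66 controls were left out. Probe sets with a mean signal over all arrays under 20.1, the 40th percentile, were left out as well. The filter used the Ts1Cje arrays too, so a probe set bright in 1 group passed through that group.

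Values were taken as log2(signal + 4.6), a constant set at the 20th percentile of the values, and averaged over both hybridisations of a pool. Fold changes are on this scale, which understates changes of dim probe sets. Detection calls were not analysed here. Precision is limited by having so few arrays. Limma 3.58.1 in R 4.3.3 was fitted to the 6 pools (lmFit and eBayes with trend; residual degrees of freedom were 2, and the prior was estimated at 6.39), with Benjamini-Hochberg adjustment over 7453 probe sets and a threshold of 0.05, and was tested on simulated data. Genes were named through the platform annotation: 1 symbol was given for 10855 probe sets, several for 396 and none for 1237; 10839 matched RefSeq (GRCm38.p6). Where a gene had several probe sets, the brightest on average was used.

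The comparison, the 36 gene lists and the 30 pairs of related genes were chosen with earlier results of these data known. Genes named are the 12 largest called differences per direction, the 10 largest called gains and losses of signal, from each list the 3 largest called per direction and the brightest uncalled member, related pairs, and the 8 most stable bright genes; further list members are given beside them and were chosen after their values were seen, as was the display of promoters and of neighbouring-region markers on all arrays. The settings tried were the constant, the filter, the scaling, the fold, single hybridisations, the mean over probe sets, the limma trend, a replicate block and leaving out each pool. Plots used matplotlib 3.10.9 and python 3.11.15.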

Additional observations from a re-analysis of the deposited data

Results flagged for a closer look

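Of 206 named genes, 166 moved the same way in both genotypes with no overlap between the hybridisations of the stages, and 4 moved in opposite ways with no overlap. Many of the 206 were named because they were called in these euploid arrays, so their lack of overlap there was built in. Over all 7453 probe sets, 4664 (62.6%) had no overlap between stages in the euploid pools. The share with no overlap in both genotypes at once was not counted over all probe sets. The counts of 166 and 4 therefore have no background share to be read against. With 1 pool per genotype and stage, the difference between genotypes was not tested. Fdps, which makes farnesyl diphosphate, had -1.37 in the euploid pools (652 and 812 at P0, 272.5 and 286 at P15) and 0.16 in the Ts1Cje pools (408 and 434 at P0, 437 and 508.5 at P15). Hba-a1, an adult alpha globin, had 0.60 in the euploid pools and -0.30 in the Ts1Cje pools, where it was dimmer at each stage (2653 and 2405 at P0, 1917 and 2202 at P15). Tfrc, the transferrin receptor, had -0.58 and 0.40, with a dim probe set of it at 0.45 in the euploid pools. U2af2, a subunit of a splicing factor, had -0.31 and 0.25, a difference below 2-fold in either genotype.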

How the results depend on the processing

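No called named gene changed sign under any setting run. Higher calls outnumbered lower ones in the reported counts, but not with no filter (622 and 741), at 1.5-fold, without the first P15 hybridisation (561 and 602) or using only hybridisation 2 of every pool (594 and 641; hybridisation 1 gave 605 and 505). A 1.5-fold threshold gave 1114 probe sets higher and 1226 lower, and a 3-fold threshold 221 and 183, by construction of the rule. A filter at the 60th percentile, which tests fewer probe sets, left 307 lower calls. It also moved the share of calls that were higher to 58.6%, against 52.3%, and no filter gave 45.6%. Leaving out single hybridisations gave 561 to 617 higher and 519 to 602 lower calls, since a lone array can no longer overlap, and 49.8% to 59.7% of calls were then also made in the Ts1Cje pools. Leaving out hybridisations or pools, limma made 1499 to 2183 calls. Both scalings shifted the median of all probe sets by under 0.1. The replicate numbers are hybridisation numbers, and the labels do not say what they share. Deviations of hybridisations with the same number had r = 0.309 between the euploid P0 and P15 pools, 0.150 to 0.354 over all 6 pairs of P0 and P15 pools of both genotypes, and -0.12 to 0.14 over the 9 pairs that hold a P30 pool. The fit with the hybridisation number as a replicate block and arrays in place of pools made 2669 calls.

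Outside the fold thresholds, 33 of the 206 named genes lost the call of size in at least 1 of 14 settings. The 206 include genes that were not called and so had no call to lose. The filter at the 60th percentile kept 172 of the 206, and genes it removed were not counted as losses. Leaving out the first P0 hybridisation took Sox2 to -0.66, Hk1 to -0.58, Grik1 to -0.52 and Nr2f2 to -0.65, and leaving out the second took Cycs to 0.69. Averaging over all probe sets of a gene took Zic2 to 0.91, Ptch1 to 0.60, Numb to 0.32, Eif2s2 to -0.45, Sin3b to -0.60 and Tubb2a to -0.88. Quantile normalization took Rplp0 to -0.80, Mapt to -0.77 and Basp1 to -0.97. A single pool per stage, dim signals and the constant limit the values.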

Other observations

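Of 824 called genes, 553 are in none of the 36 lists. The genes named here were chosen after their values were seen, by size. Among those higher at P15, Il16, a cytokine precursor with a neuronal form known in cerebellar granule neurons, had signals of 10.8 and 15.7 at P0 and 283 and 250.5 at P15 (3.94). Pkib, an inhibitor of protein kinase A, had 10.1 and 18.7 at P0 and 248 and 238 at P15 (3.74). Gpr37l1, a receptor of astrocytes and Bergmann glia, had 49.6 and 58.4 at P0 and 744 and 808.5 at P15 (3.74). Atp2a3, a calcium pump of the endoplasmic reticulum known in Purkinje cells, had 48.4 and 50.6 at P0 and 415.5 and 506 at P15 (3.10). Ptpn22, a phosphatase known from lymphocytes, had 4.4 and 9.2 at P0 and 113 and 112 at P15 (3.39), and Mybpc3, known from heart muscle, had 10.7 and 29.3 at P0 and 586 and 672.5 at P15. The Ts1Cje pools gave 3.65 for Ptpn22 and 4.79 for Mybpc3. Dao, the enzyme that degrades D-serine (2.81), and Hsd11b1, which regenerates active glucocorticoid (2.61), were higher as well, and each passed limma over both genotypes.

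Among unlisted genes lower at P15, Tal1, a helix-loop-helix factor of blood and of hindbrain and midbrain inhibitory neurons, had 59.6 and 82.2 at P0 and 9.4 and 0.8 at P15 (-3.10). Sall3, a zinc finger factor, had 138.5 and 131 at P0 and 14.2 and 10.8 at P15 (-3.03). Maged2, of the MAGE family, had 621 and 787 at P0 and 104 and 107 at P15 (-2.67). The teneurins Tenm3 (-2.16) and Tenm2 (-2.09), adhesion proteins of forming circuits, and Ahi1, a ciliary protein (-2.28), were lower. Zap70, a kinase of T cells, had -2.50 in the euploid pools and -0.08 in the Ts1Cje pools, and it did not pass limma.

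Uncx, a homeobox gene, had 49.3 and 40.5 at P0 and 235 and 240.3 at P15 (2.30), with 0.50 in the Ts1Cje pools.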
